A study of Mus musculus with 2 samples.

Results

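The platelet-derived growth factor (PDGF) ligands and receptors were described in single cells of mouse epididymal fat. Members were the rows of the transcriptome table named Pdgfa, Pdgfb, Pdgfc, Pdgfd, Pdgfra and Pdgfrb. All 6 were found among 29417 genes, and the rule used no measured value. The mice were wild-type male C57BL/6J animals on a standard diet for 16 weeks or on a high-fat diet for 8 or 16 weeks, while the age and the number of animals stay unstated in the labels. Cells came from the stromal vascular fraction, the cells that remain when digested fat is spun free of its floating adipocytes, so adipocytes themselves were not sampled. All diets were pooled in 1 run of TAS-Seq, a whole-transcriptome single-cell method, with antibody hashtags that mark the cells' origin.

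Which hashtag marked which diet is not stated in the labels. The 9 hashtag populations (A0301 to A0305 and A0307 to A0310) are therefore given by name or by their lowest, median and highest value, without any diet comparison. With 1 pooled run there was no replicate of any class, so no test was run. Intervals are exact 95% Poisson intervals for levels and exact 95% binomial (Clopper-Pearson) intervals for shares of cells. They cover counting error only and are too narrow, since reads of 1 molecule are not independent.

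PDGFs are disulfide-linked dimers of A, B, C or D chains that signal through a pair of receptor tyrosine kinases. PDGFRα binds the A, B and C chains, and PDGFRβ binds the B and D chains. The C and D chains are secreted with a CUB domain that proteases must remove before they bind, while A and B are processed inside the cell by furin-like convertases. In textbook accounts endothelial PDGF-B recruits PDGFRβ-bearing pericytes to vessels, and in fat PDGFRα marks fibroblasts that include adipocyte progenitors.

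The analysis kept 10286 of 12028 cells, with a median of 36709 reads. Clusters were made without the 6 members and without the pathway genes given later, and were named from marker genes. The fibroblast-like class had 3158 cells and was led by Dcn at 16604 CPM (a gene's summed reads in the class per 1000000 reads). The macrophage-like class had 3824 cells with Lyz2 at 10209 CPM, and the endothelial-like class had 1006 cells with Pecam1 at 1678 CPM. The mural-like class, which holds pericytes and smooth muscle cells, had 291 cells with Rgs5 at 7671 CPM. Smaller classes were mesothelial-like (295 cells), lymphatic endothelial-like (63), epididymal epithelial-like (56), T cell-like (426) and B cell-like (122). Clusters led by Ccl22, Adam7 and Ccl17 (667 cells) and by Gzma, Nkg7 and Ccl5 (378 cells) stayed unnamed because markers of more than 1 class were present: neutrophil and conventional dendritic in the former, T cell and natural killer in the latter.

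Proximal promoters are shown for 3 members because these genes took different places among the classes: Pdgfa was highest in mural-like, Pdgfd in endothelial-like and Pdgfra in fibroblast-like cells. Each run is the 250 bases before a RefSeq start (build GRCm38.p6), 5′ to 3′ on the gene's strand, with CpG dinucleotides in capitals. RefSeq windows were matched for 4 members.
Pdgfa, chr5:138994945-138995194, minus strand: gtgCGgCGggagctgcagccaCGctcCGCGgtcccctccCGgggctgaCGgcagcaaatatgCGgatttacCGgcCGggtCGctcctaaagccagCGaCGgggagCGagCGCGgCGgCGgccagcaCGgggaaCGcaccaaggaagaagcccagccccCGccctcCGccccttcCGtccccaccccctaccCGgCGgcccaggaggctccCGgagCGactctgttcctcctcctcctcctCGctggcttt
Pdgfd, chr9:6168236-6168485, plus strand: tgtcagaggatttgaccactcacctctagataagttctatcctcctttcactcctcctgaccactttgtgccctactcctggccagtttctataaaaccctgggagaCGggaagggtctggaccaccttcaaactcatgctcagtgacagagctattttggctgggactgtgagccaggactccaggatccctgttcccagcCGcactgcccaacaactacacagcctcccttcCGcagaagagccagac
Pdgfra, chr5:75152001-75152250, plus strand: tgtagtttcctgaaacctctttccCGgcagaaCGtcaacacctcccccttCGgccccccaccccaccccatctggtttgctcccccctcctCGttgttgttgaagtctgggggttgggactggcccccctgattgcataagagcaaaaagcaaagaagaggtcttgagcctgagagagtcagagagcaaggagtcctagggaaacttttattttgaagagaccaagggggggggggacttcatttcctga

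The Pdgfa window held 28 CpGs, against 3 in Pdgfd, 4 in Pdgfra and a median of 6 over 32851 windows of this length. It also held 2 GC boxes (GGGCGG, either strand), a motif found in 32.7% of all windows. A second Pdgfa window in RefSeq, nearer to the gene's 3′ end and not printed, held 19 CpGs and 1 GC box. The Pdgfd window held 1 TATAAA, found on either strand in 12.4% of windows. The Pdgfc window, not printed, held 1 CArG box, the site known for serum response factor, which 1.47% of windows hold. A match is a description of letters and shows no binding.

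Positions are from GENCODE M21 on build GRCm38. Pdgfa lies on chromosome 5 from 138976014 to 138997370 on the minus strand. Pdgfra is on the same chromosome from 75152292 to 75198215 on the plus strand. Pdgfb lies on chromosome 15 from 79995874 to 80014977 on the minus strand. Pdgfc spans 177625 bases of chromosome 3, from 81036416 to 81214040 on the plus strand. Pdgfd spans 210267 bases of chromosome 9, from 6168584 to 6378850 on the plus strand. Pdgfrb lies on chromosome 18 from 61045150 to 61085061 on the plus strand. All are protein-coding genes, and their reads were counted per gene, so isoforms were not separated.

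Each member had its own order over the classes. In 4 of the 6 members the highest class stood at least 2-fold (CPM + 1) above every other named class. These were Pdgfa in mural-like, Pdgfb in endothelial-like, Pdgfra in fibroblast-like and Pdgfrb in mural-like cells. Pdgfc and Pdgfd had no such class. The share of all genes with such a class was not computed, so the count of 4 describes these members only.

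**Figure D1:**
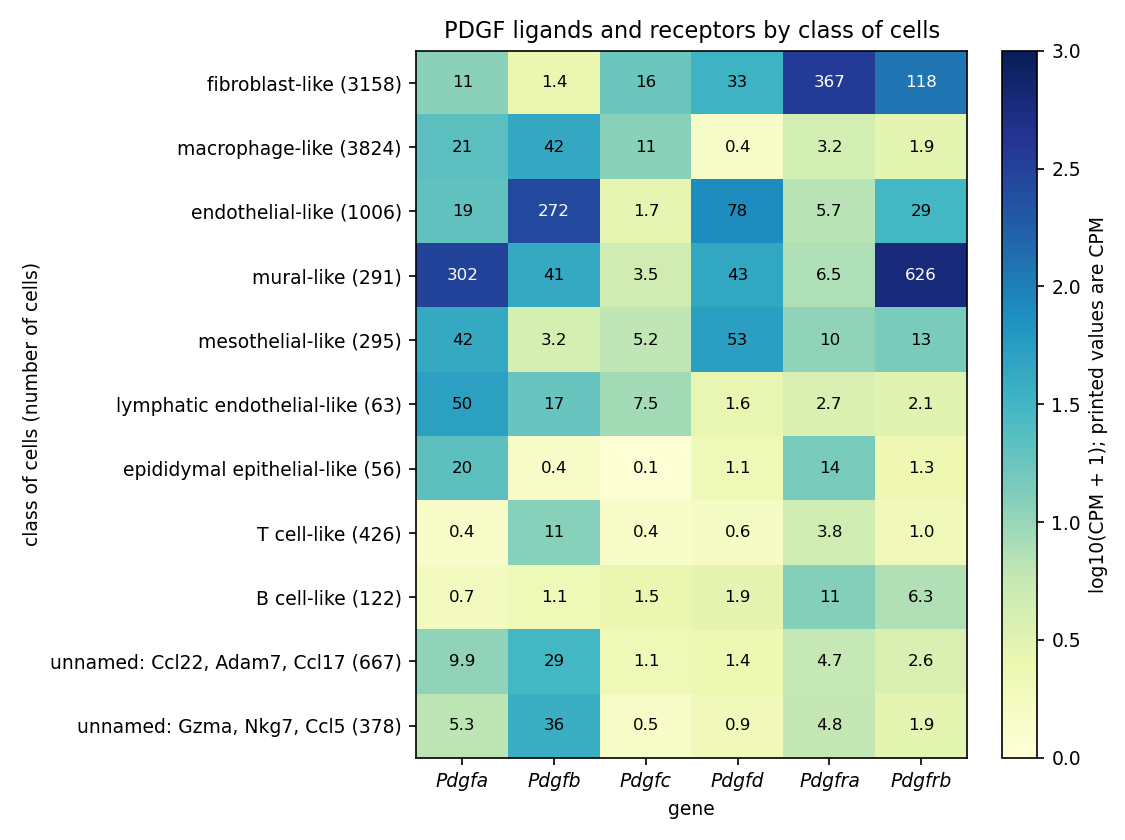
Level of the 6 members (columns) in 9 named classes and 2 unnamed clusters (rows, with cell numbers), as CPM of summed reads, coloured by log10(CPM + 1). The darkest cells are Pdgfrb and Pdgfa in mural-like, Pdgfra in fibroblast-like and Pdgfb in endothelial-like cells.

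Pdgfa encodes the A chain, a ligand of PDGFRα. It stood at 301.9 CPM in mural-like cells (interval 290.3 to 313.8), with 195, 278 and 464 CPM as the lowest, median and highest of 9 hashtag populations. The next classes were lymphatic endothelial-like at 50.5 CPM, mesothelial-like at 41.5 CPM and macrophage-like at 21.2 CPM. No hashtag population of fibroblast-like, macrophage-like or endothelial-like cells reached the mural-like range, since their highest values were 23.3, 26.0 and 54.4 CPM. Of mural-like cells, 51.2% held a Pdgfa read (interval 45.3% to 57.1%), against 0.704% of T cell-like cells at a median depth of 13978 reads and 25127 in mural-like cells. After thinning every cell to 5000 reads the shares were 38.8% and 0.469%.

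Pdgfb encodes the B chain, which binds both receptors. Its level was 272 CPM in endothelial-like cells (interval 265 to 279), and the hashtag populations ran from 236 over a median of 260.1 to 361 CPM. Macrophage-like cells followed at 41.7 CPM and mural-like cells at 41.2 CPM. The lowest endothelial-like population lay above the highest macrophage-like (58.1 CPM) and mural-like (108 CPM) ones. The order of the macrophage-like and mural-like classes is not separated by their spread, which was 23.2 to 58.1 CPM and 3.67 to 108 CPM. Because macrophage-like cells were many and deeply read, they held 65.9% of all Pdgfb reads of the pool, against 27.1% in endothelial-like cells.

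Pdgfc, the C chain, was low in every class. Fibroblast-like cells had 16.2 CPM (hashtag range 7.97 to 31.8) and macrophage-like cells 10.9 CPM (3.05 to 16.2), so their populations overlapped. Endothelial-like cells had 1.73 CPM and mural-like cells 3.55 CPM. Thinned to 5000 reads, 3.36% of fibroblast-like and 3.71% of macrophage-like cells held a Pdgfc read, against 0.235% of T cell-like cells.

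Pdgfd, the D chain and a PDGFRβ ligand, was spread over the stromal classes. It reached 78.3 CPM in endothelial-like cells (hashtag range 43.8 to 158), 52.8 CPM in mesothelial-like cells, 42.8 CPM in mural-like cells (5.32 to 69.9) and 33.3 CPM in fibroblast-like cells (26.8 to 37.6). The endothelial-like and mural-like ranges overlapped, as did the mural-like and fibroblast-like ones, while every endothelial-like population lay above every fibroblast-like one. Macrophage-like cells were at 0.407 CPM, beside 0.578 CPM in T cell-like cells.

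Pdgfra, the receptor for A, B and C chains, had the narrowest range in its highest class. Fibroblast-like cells had 367 CPM (interval 364 to 370), and all 9 populations fell between 336 and 392 CPM. Every other named class was at 13.8 CPM or below. The level in macrophage-like cells (3.24 CPM), endothelial-like cells (5.75 CPM) and mural-like cells (6.50 CPM) stood beside 3.76 CPM in T cell-like and 11.5 CPM in B cell-like cells, classes that should lack the gene. Fibroblast-like cells held 97.4% of the pool's Pdgfra reads.

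Pdgfrb, the receptor for B and D chains, had 626 CPM in mural-like cells (interval 609 to 643), with 380, 569 and 990 CPM as lowest, median and highest population. Fibroblast-like cells followed at 118 CPM (88.2 to 165). Endothelial-like cells had 29.2 CPM with a wide range of 1.87 to 75.6 CPM. The mural-like and fibroblast-like ranges did not overlap. Although lower in level, the more numerous fibroblast-like cells held 74.3% of all Pdgfrb reads and mural-like cells 19.97%.

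**Figure D2:**
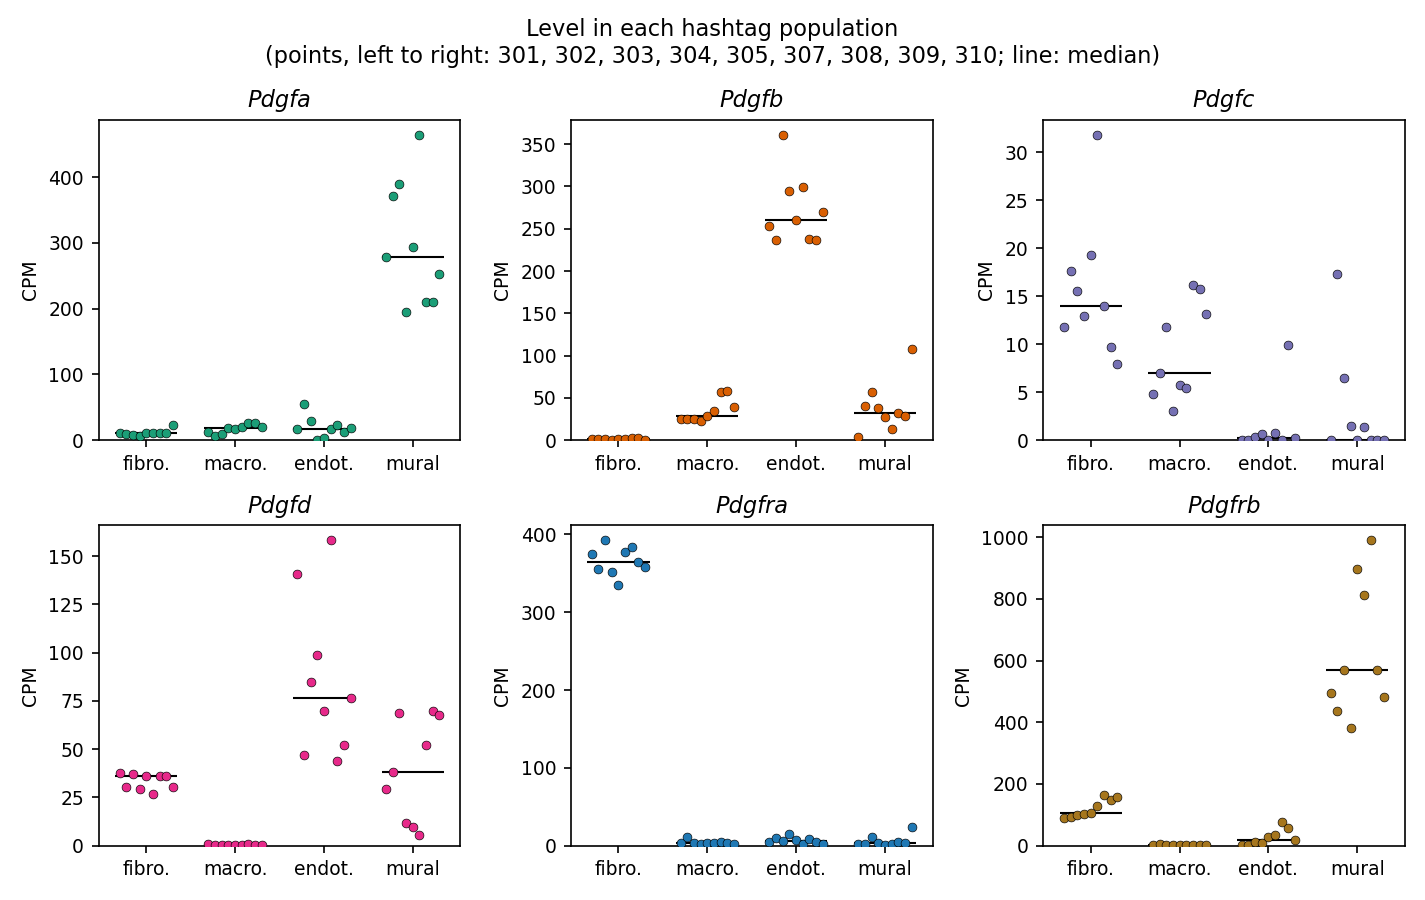
CPM of each member (panels) in each of 9 hashtag populations (points) for fibroblast-like, macrophage-like, endothelial-like and mural-like cells (left to right), with a line at the median. Pdgfra in fibroblast-like cells varied least, between 336 and 392 CPM, while mural-like Pdgfrb ran from 380 to 990 CPM.

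Values of single hashtag populations are given without reference to diet. Pdgfrb in fibroblast-like cells was 88.2, 92.7 and 100.2 CPM in A0301, A0302 and A0303, and 103.8, 106 and 128 CPM in A0304, A0305 and A0307. It was 165, 149 and 159 CPM in A0308, A0309 and A0310. The 3 highest values were thus those of A0308, A0310 and A0309. The fibroblast-like subcluster led by Cxcl9, Prkar2b and Olfm2, which is high in Pdgfrb, also took its 3 largest shares of fibroblast-like cells there, at 8.87%, 26.4% and 17.6%, and 1.26% to 5.12% elsewhere. Without it Pdgfrb was 149, 137 and 107 CPM in A0308, A0310 and A0309, and 114 CPM in A0307, above A0309. The part of this subcluster beyond these values was not tested.

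Pdgfb in macrophage-like cells was 24.8, 25.4 and 25.1 CPM in A0301, A0302 and A0303, and 23.2, 28.2 and 34.5 CPM in A0304, A0305 and A0307. It was 56.7, 58.1 and 38.9 CPM in A0308, A0309 and A0310, the 3 highest values. Pdgfc in macrophage-like cells was 16.2, 15.8 and 13.1 CPM in these, and 3.05 to 11.8 CPM elsewhere. The median depth of macrophage-like cells moved with these values: it was 73389, 71726 and 84422 reads in A0308, A0309 and A0310, and 31978 to 56654 reads elsewhere. The makeup of the class moved too. The macrophage-like subcluster led by Hmga2, Pgm5 and Sox4 had 110 cells in A0308, 187 in A0309 and 33 in A0310, and under 20 in each other population. In A0308, A0309 and A0310 its Pdgfb was 68.7, 75.5 and 58.1 CPM. Its Pdgfc was 9.19, 10.6 and 9.47 CPM, below the class values. The subcluster led by Hbb-bs, Hba-a1 and Hba-a2 had 220, 179 and 65 cells there, with Pdgfc at 27.7, 33.8 and 61.2 CPM. That led by Xcl1, Gm23935 and Gm24245 had 96, 133 and 51 cells, with Pdgfc at 20.9, 28.4 and 24.1 CPM. Both had 22 to 37 cells in A0304, A0305 and A0307. The part of depth and makeup in these levels was not tested.

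Each of the 4 large classes was clustered again, without the members, into 33 subclusters. In 17 of 17 pairs of member and class that reached 20 CPM in a subcluster, the highest subcluster was at least 2-fold (CPM + 1) above the lowest. Over all genes 73.3% of such pairs did so, and the count was 16 both with per-cell means and without the subclusters that carry another class's markers, so most genes shared this spread. Subclusters were not matched across animals, and their levels are values of these cells.

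Pooled over hashtag populations, the 2 largest mural-like subclusters differed in the A chain and in PDGFRβ, in opposite directions. The subcluster led by Epor, Cd209a and Ccl17 (117 cells) had the pericyte channel gene Kcnj8 at 649 CPM, while that led by Pln and Susd5 (83 cells) had the smooth muscle myosin Myh11 at 5333 CPM and Kcnj8 at 7.67 CPM. Pdgfrb was 1088 CPM (interval 1050 to 1128) in the former and 251 CPM (232 to 271) in the latter. Pdgfa was 212 CPM in the former and 467 CPM in the latter. Among mural-like subclusters, only the Epor-led one had 20 cells in any hashtag population, with 24 in A0308. Its Pdgfrb there was 1482.5 CPM, above the pooled interval, and its Pdgfa was 115 CPM, below the pooled level. The contrast of the 2 subclusters could not be followed across hashtag populations, since the Pln-led cells reached 20 cells in none. The Pln-led cells had 5 of 6 smooth muscle markers at least 2-fold above the other mural-like cells, and the Epor-led cells had 3 of 6 pericyte markers. The Epor-led cells stay unnamed, because Cd209a and Ccl17, genes of dendritic cells, were among their leading genes. A subcluster led by Hmcn2, Ccl19 and Lrrc15 (60 cells) had Pdgfrb at 866 CPM and Pdgfa at 320.3 CPM.

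Pdgfb was near 0 in the Epor-led cells, with 1 read in all (0.359 CPM), and no read was found in the Hmcn2-led subcluster, where 3 reads would equal 1.84 CPM. The smooth muscle-like subcluster had 58.7 CPM of Pdgfb (interval 49.8 to 68.8). Its endothelial markers were Cdh5 at 34.9 CPM and Pecam1 at 27.6 CPM, against 1471 and 1678 CPM in the endothelial-like class. A subcluster led by Mmp12, Ptprb and Plvap (31 cells) carried endothelial markers, with Cdh5 at 666 CPM, beside Rgs5 at 5875 CPM. It had 136 CPM of Pdgfb and 124 CPM of Pdgfd, and the lowest Pdgfa (157 CPM) and Pdgfrb (136 CPM) of the 4. Without it the mural-like class fell from 41.2 to 21.9 CPM for Pdgfb and from 42.8 to 26.2 CPM for Pdgfd. Pdgfrb was then 726 CPM and Pdgfa 332 CPM. Of the 260 mural-like cells then left, 12 held a Pdgfb read, so the 58.7 CPM of the smooth muscle-like subcluster rests on few cells.

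**Figure D3:**
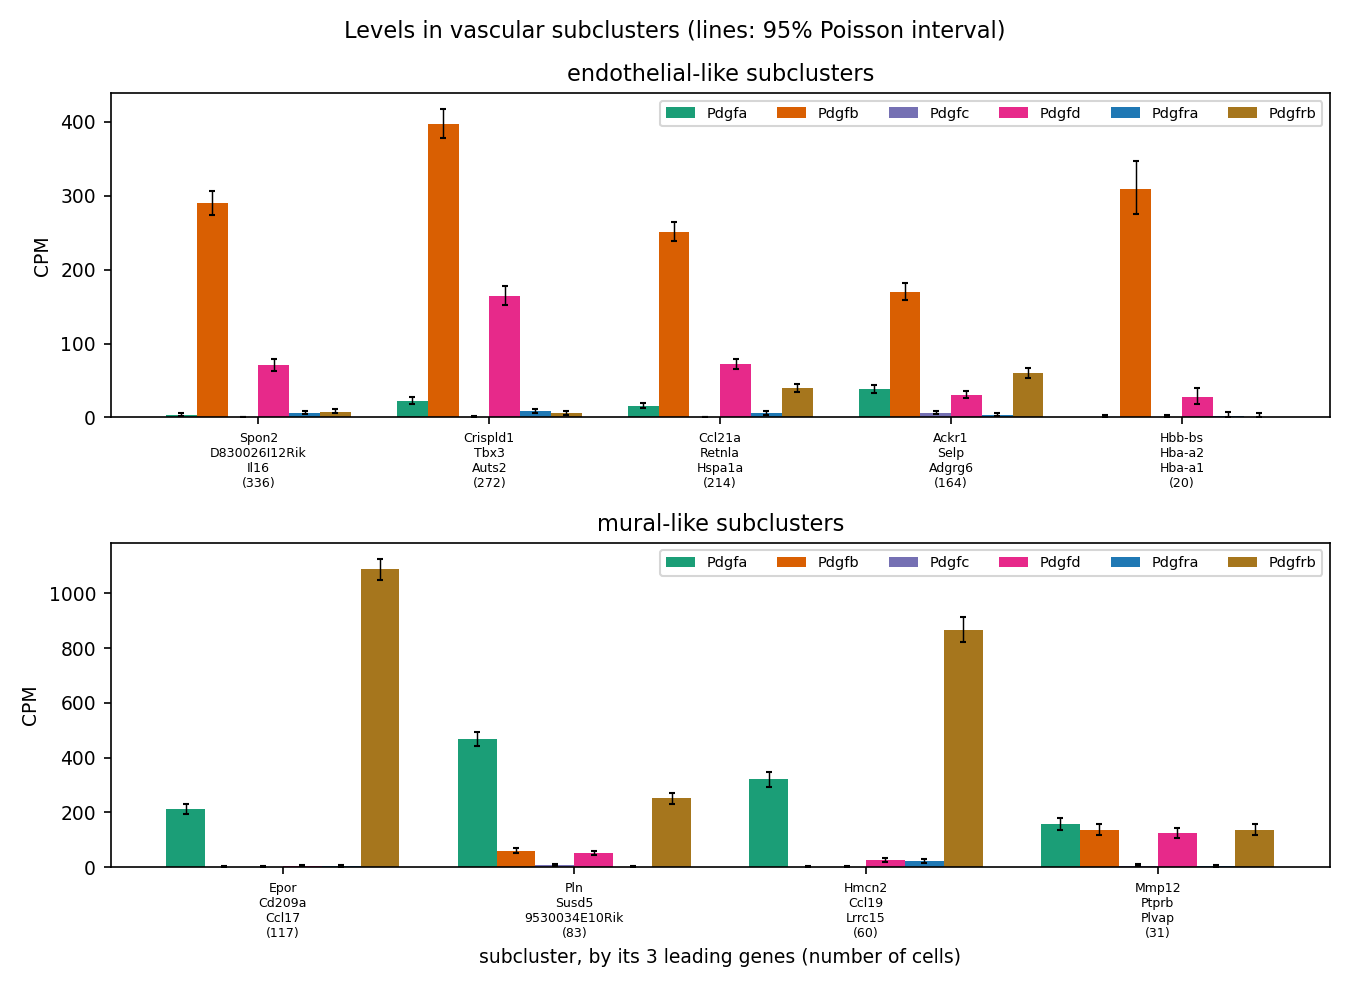
CPM of the 6 members in 5 endothelial-like and 4 mural-like subclusters, named by 3 leading genes with cell numbers below; lines are 95% Poisson intervals. Pooled over hashtag populations, Pdgfb and Pdgfd peak together in the Crispld1-led subcluster, and Pdgfrb in the Epor-led one.

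Pooled over hashtag populations, endothelial-like subclusters differed in Pdgfb and more widely in Pdgfd. The subcluster led by Crispld1, Tbx3 and Auts2 (272 cells) had the arterial gap junction gene Gja5 at 138 CPM, and that led by Ackr1, Selp and Adgrg6 (164 cells) had the venous genes Selp at 530.5 CPM and Ackr1 at 355 CPM. Pdgfb was 398 CPM (interval 379 to 417) in the former (arterial-like, 6 of 7 arterial markers at least 2-fold above the other endothelial-like cells) and 170.2 CPM (159 to 182) in the latter (venous-like, 6 of 7). Pdgfd was 165 CPM (153 to 178) and 30.4 CPM (25.8 to 35.7), a 5.27-fold ratio that was 8.43-fold on means of per-cell CPM. Over hashtag populations with at least 20 cells, arterial-like Pdgfb ran from 178 to 553 CPM and Pdgfd from 69.5 to 321 CPM. The venous-like subcluster reached 20 cells only in A0308, A0309 and A0310. Its Pdgfb was 145 to 189 CPM there and its Pdgfd 14.9 to 41.2 CPM. The lowest arterial-like Pdgfb (A0301) thus lay inside the venous-like range, while the Pdgfd ranges did not overlap. In A0308, A0309 and A0310 arterial-like Pdgfb was 390, 369 and 553 CPM. The subcluster led by Spon2, D830026I12Rik and Il16 (336 cells), with the capillary gene Gpihbp1 at 3607 CPM, had Pdgfb at 290.1 CPM and Pdgfd at 71.03 CPM. Pooled over hashtag populations, none of the 5 endothelial-like subclusters was below 170.2 CPM of Pdgfb.

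Pdgfrb in endothelial-like cells differed between subclusters, and the mural marker Rgs5 is given beside it. Pdgfrb was 7.99 CPM in the Spon2-led and 5.86 CPM in the arterial-like cells, where Rgs5 was 84.97 and 189 CPM and Acta2 1.83 and 21.5 CPM. In the subcluster led by Ccl21a, Retnla and Hspa1a (214 cells) Pdgfrb was 39.9 CPM, with Rgs5 at 465 CPM and Acta2 at 14.2 CPM. In the venous-like cells it was 59.7 CPM, with Rgs5 at 1205 CPM and Acta2 at 359 CPM. The 2 subclusters with the most Pdgfrb also had the most Rgs5, while Acta2 was lower in the Ccl21a-led than in the arterial-like cells. The venous-like subcluster held 6 of 10 mural markers at 10% or more of their highest cluster's level. Without it the endothelial-like class had 19.0 CPM of Pdgfrb in place of 29.2 CPM. The part of mural RNA in this signal was not tested.

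Fibroblast-like subclusters all held Pdgfra, from 211 CPM in the subcluster led by Krtdap, Igfbp5 and Dmkn (265 cells) to 616 CPM in those led by Hp, Lvrn and Vsig10 (163 cells) and by Star, Prg4 and Emb (21 cells). Pdgfrb ran from 39.6 CPM in the Krtdap-led subcluster to 260.1 CPM (interval 252 to 269) in the Cxcl9-led one (204 cells). The Cxcl9-led cells also carried the contractile genes Acta2 (68.1 CPM) and Tagln among their 10 leading genes, with Rgs5 at 28.0 CPM, against 4947 CPM of Acta2 and 7671 CPM of Rgs5 in mural-like cells. For Acta2 and Tagln alone they were placed among the subclusters that carry another class's markers. Without those subclusters fibroblast-like Pdgfrb was 105 CPM in place of 118 CPM.

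Pdgfc was concentrated in few fibroblast-like subclusters. It was 50.4 CPM (interval 47.6 to 53.2) in the subcluster led by Mrgprg, Duoxa1 and Duox1 (359 cells), in which 4 of 6 progenitor markers were at least 2-fold above the other fibroblast-like cells. Over hashtag populations with 20 cells, Pdgfc ran from 11.6 to 79.4 CPM there. It was 25.3 CPM in the subcluster led by Cxcl10, Dmkn and Hbegf (393 cells) and 21.6 CPM in the Krtdap-led one. The subcluster led by Enpp6, Nrep and Meox1 (347 cells) had 1.04 CPM and the Cxcl9-led cells had 0.213 CPM. Pdgfrb was lowest in these 3 subclusters: 47.1 CPM in the Mrgprg-led, 48.1 CPM in the Cxcl10-led and 39.6 CPM in the Krtdap-led cells. The 32-cell subcluster led by Retnla, C1qb and H2-Ab1, which carries macrophage markers, had both, with Pdgfc at 29.0 CPM and Pdgfrb at 96.1 CPM. Pdgfd was flatter, from 16.5 CPM in the Enpp6-led subcluster to 54.4 CPM in one led by the haemoglobin genes Hbb-bs, Hba-a1 and Hba-a2.

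Among 12 macrophage-like subclusters, ligands differed while neither receptor exceeded 6.64 CPM. Pdgfb was 71.2 CPM (interval 68.8 to 73.6) in the Hmga2-led subcluster (352 cells), which also had the most Pdgfa at 36.9 CPM. It was 11.98 CPM in the subcluster led by Cd226, Hcar2 and Upb1 (271 cells). Pdgfc was 38.1 CPM (interval 33.9 to 42.6) in the subcluster led by Rnase2a, Lyve1 and Cd209f (184 cells), in which all 7 resident-macrophage markers were at least 2-fold above the other macrophage-like cells. It was 2.56 CPM in the subcluster led by Slpi, Cd200 and Mfge8 (469 cells) and 1.93 CPM in that led by Inmt, Cfd and Car3 (215 cells). Pooled over populations, cells with Lyve1 and Cd209f thus held more Pdgfc than Pdgfc's whole-class level of 10.9 CPM. Their pooled Pdgfb (27.8 CPM) was below the class level of 41.7 CPM. Single populations varied. In A0304, A0305 and A0307 (36, 51 and 55 of these cells) Pdgfc was 3.48, 36.7 and 36.8 CPM. The whole class had 3.05, 5.72 and 5.45 CPM there. Pdgfb was 2.61, 47.1 and 28.9 CPM in these cells, against 23.2, 28.2 and 34.5 CPM in the class. In A0305 their Pdgfb was thus above the class level. Pdgfc was also raised in the subcluster led by haemoglobin genes (581 cells), at 31.3 CPM.

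**Figure D4:**
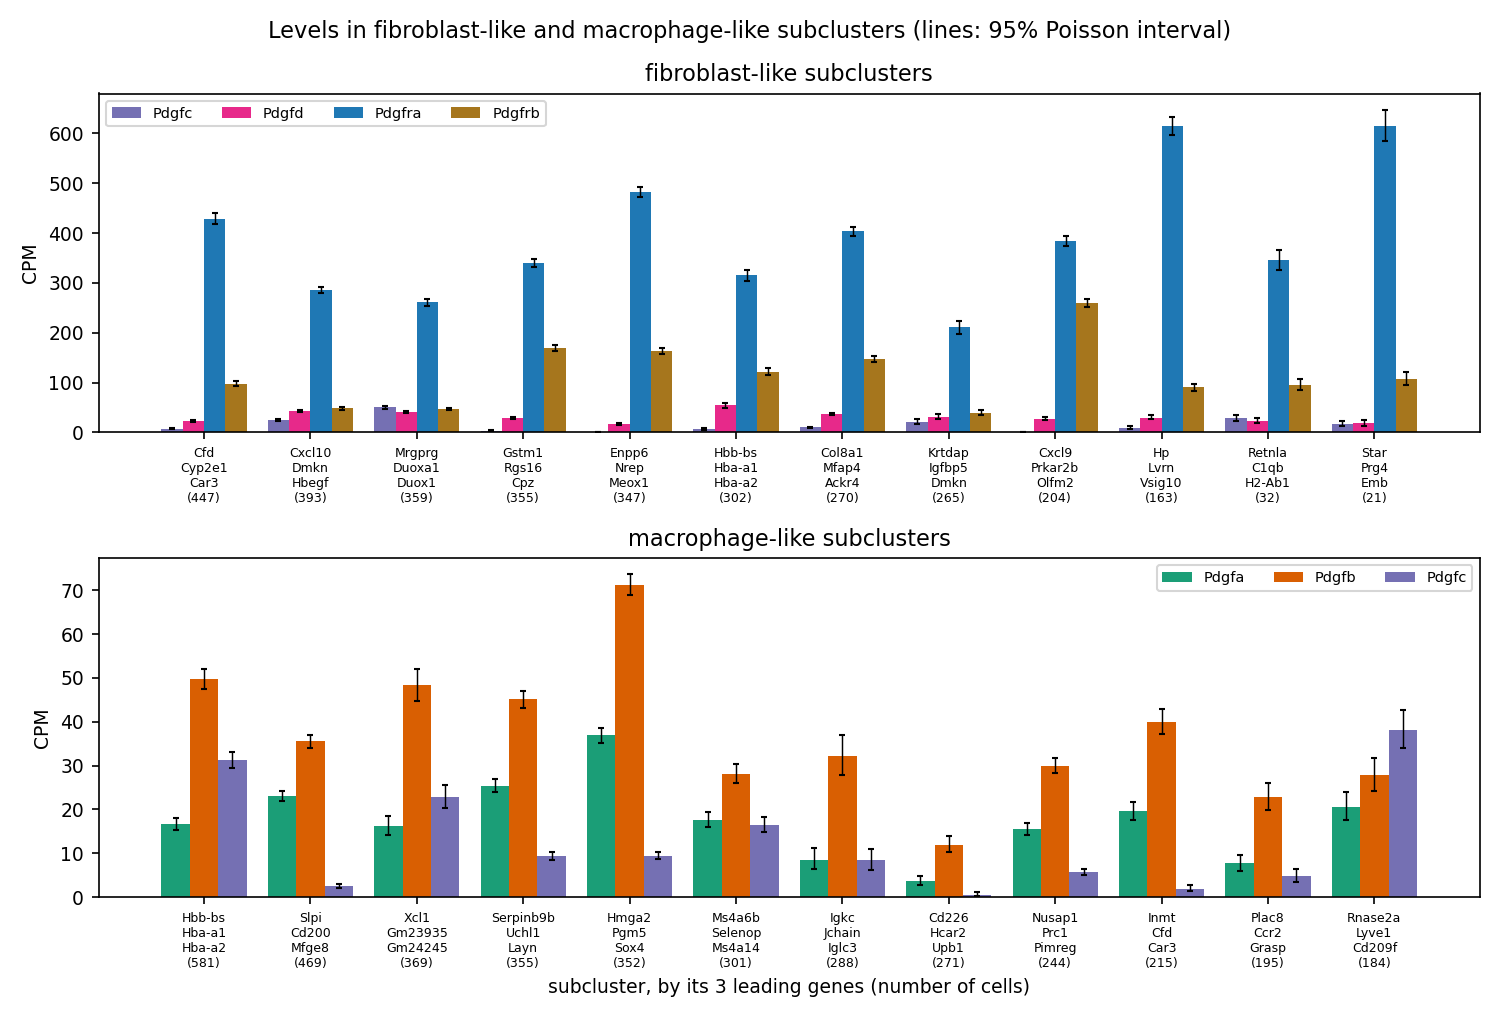
CPM of 4 members in 12 fibroblast-like subclusters and of 3 ligands in 12 macrophage-like subclusters, named by 3 leading genes with cell numbers; lines are 95% Poisson intervals. Pooled over hashtag populations, Pdgfra stays above 200 CPM in all fibroblast-like subclusters, whereas Pdgfc is high in few of either class.

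Receptors in the same cell were counted next. Of 3158 fibroblast-like cells, 36.5% held reads of both Pdgfra and Pdgfrb (interval 34.8% to 38.2%), 36.7% of Pdgfra only and 5.19% of Pdgfrb only. Of 291 mural-like cells, 63.6% held Pdgfrb only (interval 57.8% to 69.1%), 5.84% both and 2.06% Pdgfra only. In T cell-like cells 0 of 426 held both, where 3 cells would equal 0.704% and the exact interval reaches 0.862%. Of these cells 4.23% held Pdgfra only. A Pdgfra read was found in 7.90% of mural-like cells. Thinned to 5000 reads this share was 1.72%, beside 1.88% of T cell-like cells. In the Hmcn2-led mural-like subcluster Pdgfra was 21.5 CPM (interval 14.96 to 29.9), with a read in 5 of 60 cells.

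These shares follow depth. Thinned to 5000 reads a cell, 16.0% of fibroblast-like cells held both receptors (interval 14.8% to 17.3%) and 1.03% of mural-like cells did (0.213% to 2.98%). At 6 or more reads of each receptor the shares were 22.6% and 0.687%. In each setting the fibroblast-like interval lay above the mural-like one. The unthinned fibroblast-like share ran from 29.8% in A0302 to 47.2% in A0310, and the thinned share from 11.6% to 22.5%. Of the fibroblast-like subclusters with over 100 cells, the thinned share was lowest in the Krtdap-led cells (3.77%) and highest in the Cxcl9-led cells (34.8%). Cells without a read of a receptor cannot be told from cells whose transcript was missed.

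**Figure D5:**
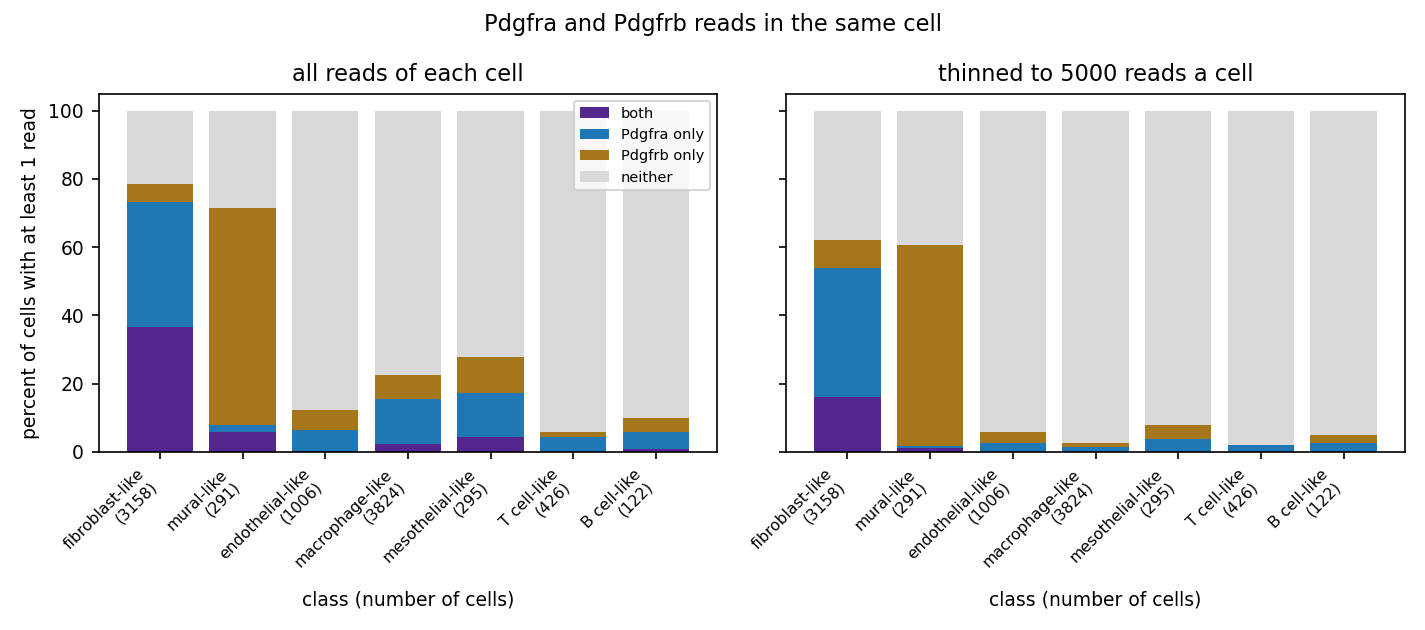
Percent of cells in 7 classes with reads of both receptors, of Pdgfra only, of Pdgfrb only or of neither, for all reads (left) and after thinning to 5000 reads a cell (right). Cells with both are frequent only in the fibroblast-like bar, 36.5% before and 16.0% after thinning.

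Further genes of the pathway were taken from a list of 55 in 4 parts, of which 50 were found. A gene was called where CPM + 1 differed by 2-fold or more and at least 1 class had 20 CPM. Ratios below are of CPM + 1. The populations that keep a direction were not counted over all genes, so such counts are not read as particular to the members.

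Macrophage-like against fibroblast-like cells, 10 of 43 measured pathway genes were higher and 13 lower, while 20 were within 2-fold. Over all 7756 genes, 17.1% were higher in macrophage-like and 21.8% higher in fibroblast-like cells. Of the 5 members with 20 CPM, Pdgfb was higher in macrophage-like cells (17.5-fold), and Pdgfd, Pdgfra and Pdgfrb were higher in fibroblast-like cells (24.4-fold, 86.8-fold and 40.5-fold). These 4 directions held in 9 of 9 hashtag populations, as did that of every called pathway gene in this comparison. Pdgfa at 1.93-fold was not called, though leaving out the subclusters that carry another class's markers moved it just past the limit (2.01-fold, with 7 of 9 populations in that direction). The median log2 ratio of the pathway list was -0.64, against -0.01 over all genes.

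Ligand processing separated these classes. Plat, tissue plasminogen activator, which removes the CUB domain of the C chain, stood at 374 CPM in the fibroblast-like class and 4.65 CPM in the macrophage-like class. The convertase Pcsk6 was 269 and 2.37 CPM, and the protease inhibitor Serpine2 was 376 and 5.33 CPM. Plaur, the receptor of urokinase, was higher in macrophage-like cells (120 against 17.2 CPM, 6.61-fold). Of 8 measured genes of this part, 2 were higher in macrophage-like and 5 in fibroblast-like cells.

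Among co-receptors and ligand-binding genes, Sparc, a matrix protein that binds PDGF-B, stood at 10005 CPM in the fibroblast-like class and 56.8 CPM in the macrophage-like one, a 173-fold ratio. The table lists no value of Sparc below 18 reads and none of Lrp1 below 6. With every 0 set to 1 read less than that lowest value, the Sparc ratio was 41.0-fold. The perlecan gene Hspg2 (292 and 7.61 CPM) and Pdgfrl, a receptor-like gene without kinase (27.7 and 0.497 CPM), were also higher in fibroblast-like cells. The neuropilin Nrp2 was higher in macrophage-like cells (114 against 23.0 CPM). Nrp1 (152 against 100.4 CPM) and the endocytic receptor Lrp1 (432 against 852 CPM) were within 2-fold. Of adaptors, the kinase subunit Pik3cb (33.8 against 2.27 CPM, 10.6-fold) and the scaffold Slc9a3r1 (80.7 against 9.30 CPM, 7.93-fold) were higher in macrophage-like cells.

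Endothelial-like against fibroblast-like cells, 12 of 46 measured pathway genes were higher and 9 lower. Over all 8142 genes, 18.9% were higher in endothelial-like and 14.1% higher in fibroblast-like cells. Of the 4 members with 20 CPM, Pdgfb (112-fold) and Pdgfd (2.31-fold) were higher in endothelial-like cells, and Pdgfra (54.5-fold) and Pdgfrb (3.94-fold) were lower, each in 9 of 9 populations. The pathway list had a median log2 ratio of 0.43, against 0.23 over all genes.

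Both neuropilins were higher on the endothelial-like side, with Nrp1 at 561 against 100.4 CPM (5.54-fold) and Nrp2 at 201 against 23.0 CPM (8.41-fold). The largest ratio there was that of Pik3cb (33.5 against 2.27 CPM, 10.5-fold). Other signalling genes were the scaffold Slc9a3r2 (419 against 49.1 CPM) and the phospholipase Plcg1 (142 against 23.7 CPM). Fibroblast-like cells were higher in Lrp1 (852 against 22.7 CPM, 35.9-fold, or 3.77-fold with 0s set to 5 reads), in the convertases Pcsk6 (269 against 19.0 CPM) and Pcsk5 (91.9 against 8.13 CPM), in Serpine2 (376 against 33.1 CPM) and in Pdgfrl (27.7 against 1.83 CPM). Sparc (6705 against 10005 CPM) and Hspg2 (319 against 292 CPM) were within 2-fold.

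Mural-like against fibroblast-like cells, 13 of 46 measured pathway genes were higher and 9 lower. Over all 8171 genes, 18.8% were higher in mural-like and 11.0% higher in fibroblast-like cells. Of the 5 members with 20 CPM, Pdgfa (26.3-fold), Pdgfb (17.3-fold) and Pdgfrb (5.27-fold) were higher in mural-like cells and Pdgfra (49.0-fold) was lower, each in 9 of 9 populations. Pdgfd, at 1.28-fold, was not called and kept its direction in 5 of 9. Without the subclusters that carry another class's markers Pdgfb was 11.04-fold higher, in 6 of 9 populations, and Pdgfd turned to 0.777-fold. Of the 154 Pdgfb reads then left in mural-like cells, 153 were in the Pln-led cells. The list's median log2 ratio was 0.38, against 0.26 over all genes.

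Cspg4, the NG2 proteoglycan that binds the A chain and marks mural cells, had the largest ratio (211 against 2.31 CPM, 64.2-fold). Nrp1 was 296 against 100.4 CPM and Nrp2 64.9 against 23.0 CPM. The scaffold Slc9a3r2 was 217 against 49.1 CPM and the adaptor Nck2 31.4 against 7.51 CPM. Fibroblast-like cells were higher in Pcsk6 (269 against 4.61 CPM), Plat (374 against 55.2 CPM), the urokinase gene Plau (131 against 22.6 CPM) and Lrp1 (852 against 213 CPM). Pdgfrl (27.7 against 7.68 CPM) and Hspg2 (292 against 141 CPM) were also higher there, and Sparc (7846 against 10005 CPM) was within 2-fold.

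Mural-like against endothelial-like cells, 9 of 45 measured pathway genes were higher and 8 lower. Over all 8330 genes, 13.7% were higher in mural-like and 12.1% higher in endothelial-like cells. Of the 4 members with 20 CPM, Pdgfa (15.01-fold) and Pdgfrb (20.7-fold) were higher in mural-like cells and Pdgfb (6.46-fold) was higher in endothelial-like cells, each in 9 of 9 populations. Pdgfd, at 42.8 against 78.3 CPM, was not called. Without the subclusters that carry another class's markers the ratios were 23.9-fold for Pdgfa, 36.3-fold for Pdgfrb and 13.4-fold for Pdgfb, and Pdgfd passed the limit as 3.50-fold higher in endothelial-like cells. The list's median log2 ratio was 0.02, against 0.01 over all genes.

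Cspg4 (211 against 9.27 CPM), Serpine2 (516 against 33.1 CPM), Lrp1 (213 against 22.7 CPM) and Pcsk5 (37.3 against 8.13 CPM) were higher in mural-like cells. The call of Lrp1 was lost, at 1.32-fold in place of 9.02-fold, with 0s set to 5 reads. Endothelial-like cells were higher in Pik3cb (33.5 against 6.50 CPM), the adaptor Nck1 (107 against 26.0 CPM), Plcg1 (142 against 36.6 CPM), Nrp2 (201 against 64.9 CPM) and Hspg2 (319 against 141 CPM). Nrp1 (561 against 296 CPM) and Sparc were within 2-fold. Comparisons that share a class share its cells, so their values are given side by side only.

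The genes most like each member were ranked by Pearson r of log2(CPM + 1) over 19 clusters, among 7880 genes with 50 CPM in a cluster. The clusters share 1 library and differ in depth, so r is a description. Pdgfra ranked with Svep1 (0.986), the keratan sulfate proteoglycan gene Lum (0.982), Dpep1 (0.981), Prrx2 and Matn2 (0.968 each). Pdgfrb ranked with Steap4 (0.97), Arhgef17 (0.965), Adamts12 (0.953), Trabd2b (0.951) and Mfrp (0.95). Pdgfb ranked with Cd93 (0.947) and Hip1 (0.944), then Map3k11 (0.882), Gnai2 and Ggta1 (0.878 each). Pdgfd ranked with Gulp1 (0.968), Ptprg (0.967), Eml1 (0.96), Sparc (0.958) and Pkd2 (0.942). Pdgfa had looser matches in Pacsin2 (0.85), Actn4 (0.791), Lims1 (0.789), Tpm1 (0.787) and Acadm (0.783). Pdgfc, the lowest member, had the loosest, from Tubb6 (0.785) over Timp2 (0.772), Pmp22 (0.764) and Rnf13 (0.762) to Camk1 (0.739).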

How the data were processed

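The authors deposited 1 table of counts per gene and cell for the pooled run and 1 table of hashtag counts. Per the submitters' processing notes, cutadapt 2.10, Bowtie2 2.4.2, R 3.6.3 and build GRCm38 were used, with no roles stated. The table's counts are treated as reads, not as unique molecules, so counting errors are understated. The 12 cell columns with neither a hashtag nor a doublet prefix were not used. All 12028 remaining barcodes were also in the hashtag table, which holds 714687 barcodes, and in 93.4% of kept cells the called hashtag was the most counted one.

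Cells with under 200 genes or over 25% mitochondrial reads (1253), hashtag doublets (254) and Scrublet doublets (236, 2.19% of passing cells) were removed. Kept cells held 5169 to 736281 reads. Clustering used scanpy 1.11.5 and Leiden (leidenalg 0.10.2) at resolution 1 on 2000 variable genes, 30 principal components and 15 neighbours, without members and pathway genes. A cluster was named where at least 50% of a class's markers (3 or more) had 20 CPM and 25% of their highest cluster's CPM. A second class with 85% of its markers left it unnamed. Subclusters used resolution 1 (fibroblast-like, macrophage-like) or 0.5 (endothelial-like, mural-like). A subcluster was taken to carry another class's markers where at least 50% of them (3 or more) had 20 CPM and 10% of their highest cluster's CPM. A subcluster with more than 1 marker of another class among its 10 leading genes was also taken so. The Cxcl9-led fibroblast-like subcluster met only this second rule. These naming limits and resolutions were set after seeing the clusters. The members, lists and tests were chosen with earlier results of these data known.

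Levels are CPM of summed counts, and ratios use a pseudocount of 1. The call rule was tested on simulated data with counting error only. Spread between cells and between hashtag populations was not simulated, so that test cannot speak to false calls from such spread. Named pathway genes were the 4 called genes with the largest ratio per direction, and every co-receptor or ligand-binding gene with 20 CPM. A gene that this rule names is not reported here. For clusters the 3 leading genes were named, and the 5 most like genes per member. Genes outside this rule, such as Kcnj8, Gja5 and Cdh5, were named as state or class markers after their values were seen. Alternatives were per-cell means, thinning, other filters, resolutions and limits, and leaving out each hashtag population.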

Additional observations from a re-analysis of the deposited data

Results flagged for a closer look

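Of 24 sets of 9 hashtag values (6 members in 4 classes), 8 had 1 population whose distance to its nearest neighbour exceeded 0.493 of the whole range. For evenly measured, normally spread values chance gives about 1 in 20. These levels rest on unequal cell numbers and often on few reads, so that rate is only a guide. The rule was not run over all genes, so 8 of 24 is not shown to be particular to the members. In fibroblast-like cells Pdgfa was 23.3 CPM in A0310 against 10.8 CPM in the next population, and Pdgfc was 31.8 CPM in A0307 against 19.2 CPM. In macrophage-like cells A0302 (81 cells) had the highest Pdgfra, 10.6 against 4.70 CPM, and the highest Pdgfrb, 5.44 against 2.55 CPM. In endothelial-like cells Pdgfb was 361 CPM in A0303 against 299 CPM, and Pdgfc was 9.92 CPM in A0309 against 0.753 CPM. Of the class's 35 Pdgfc reads, 31 came from 1 cell of A0309. In mural-like cells Pdgfc was 17.3 CPM in A0302 (40 cells) against 6.45 CPM, and Pdgfra was 23.9 CPM in A0310 (30 cells) against 10.7 CPM.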

How the results depend on the processing

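The count of members with 1 class at least 2-fold above the rest stayed at 4 under all 17 alternatives, 9 of which each left out 1 hashtag population. No member's called ratio reversed. Leaving out the 4 subclusters that carry another class's markers, an alternative chosen after seeing the data, was 1 of the 17. The numbers of called pathway genes ranged from 18 to 27 (macrophage-like against fibroblast-like), 16 to 23 (endothelial-like against fibroblast-like), 11 to 24 (mural-like against fibroblast-like) and 12 to 22 (mural-like against endothelial-like). Leaving out 1 population gave 23 to 25, 21, 20 to 23 and 16 to 20. The 3-fold limit gave 11 in place of 22 for mural-like against fibroblast-like cells, since a stricter limit calls fewer genes. Pdgfc, which had no call, ranged from 0.958-fold to 1.67-fold for fibroblast-like over the next class. The share of fibroblast-like cells with both receptors moved under each alternative: 36.5% with all reads, 16.0% thinned to 5000 reads, 24.8% thinned to 10000, 22.6% at 6 reads, and 29.8% to 47.2% in single populations. The mural-like share was 5.84% and ranged from 0.687% to 10.0%. Setting 0s to the lowest value less 1 added no reads to the members, whose lowest value is 1, but moved Lrp1 and Sparc. No analysis paired by animal or diet was possible because the labels give no replicate numbers and tie no hashtag to a group. Classes were compared within hashtag populations only as counts of direction. Depth limits the low values: Pdgfra in macrophage-like, endothelial-like and mural-like cells lies near its level in T cell-like cells.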

Other observations

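Pdgfb reads were also found in both unnamed clusters. In the cluster led by Ccl22, Adam7 and Ccl17, genes of migratory dendritic cells among them, it had 29.3 CPM (interval 26.5 to 32.2), with 16.1, 27.8 and 40.5 CPM as the lowest, median and highest of 9 hashtag populations. In the cluster led by the cytotoxic genes Gzma and Nkg7 and by Ccl5 it had 36.1 CPM (interval 31.6 to 41.1), and 2.97 to 61.8 CPM over the 7 populations with 20 cells. T cell-like cells had 10.99 CPM of Pdgfb. In these clusters Pdgfc and Pdgfd were at or below 1.36 CPM. Mesothelial-like cells held Pdgfa at 33.6, 40.7 and 45.6 CPM and Pdgfd at 34.7, 43.2 and 95.4 CPM as lowest, median and highest of 5 populations.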
